A study of Triticum aestivum and Zea mays with 29 samples.

Results

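Zm-TS4 is a Cas12a guide against liguleless2 of maize (gene Zm00001d042777), and it was the only guide chosen here, 1 of the 12 guides of the series with amplicon sequencing and 1 of the 6 maize guides in the tables used. It was taken by its name from 2 tables, one of A-to-G and one of C-to-T conversion, and Zm-TS3 was the only other guide present in both. In the arms that received an editor, the crRNAs were co-delivered in multiplex with 1 editor into protoplasts of etiolated B104 maize leaves. Cells positive for the GFP encoded with the editor were sorted, and the target amplicons were sequenced. The adenine base editor (ABE) experiment had 7 arms and the cytosine base editor (CBE) experiment had 3, each with 3 independent biological replicates. The paper describes 6 ABE and crRNA configurations in maize, so not all 7 arms need be editor configurations, and the labels do not say which.

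The groups were only partly named. For the ABE table a header lists 4 editors, TadA8e on LbCas12a(D832A), TadA8e on LbCas12a(D156R, D832A), TadA9 on the same double mutant and TadA9 joined to it by a 6xGGGGS linker, and 2 crRNA systems, a tRNA with direct repeats under the TaU3 promoter and hammerhead and HDV ribozymes under the 35S promoter. The labels and the table give no key from the arm numbers 1 to 7 to these plasmids, so the arms stay numbered and no component is compared. The header of the CBE table lists crRNAs of the tRNA system alone. Arm 1 carried A3A joined to LbCas12a(D156R, D832A) by an XTEN linker (CBE5), arm 2 carried the same deaminase and Cas12a with a 6xGGGGS linker (CBE6), and both carried a uracil glycosylase inhibitor. Arm 3 has no entry in the key and was read as the control, and what it received is not stated there.

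As background, liguleless2 encodes a bZIP transcription factor that acts where the maize leaf blade meets the sheath, and its loss disturbs the ligule and auricle that form there. LbCas12a binds next to a T-rich PAM and opens the DNA, which leaves the strand that does not pair with the crRNA single-stranded. D832A removes the cutting activity, so a deaminase fused to the protein acts on the exposed strand. TadA variants turn adenine into inosine, which is read as G, and the APOBEC3A deaminase A3A turns cytosine into uracil, which is read as T.

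The Zm-TS4 site is printed below because every value belongs to one of its bases. Each line gives the 4-base PAM and then the 23-base spacer, 5′ to 3′, with spacer position 1 next to the PAM, and capitals mark the bases that each table lists.
Zm-TS4, adenines of the A-to-G table: tttatcgtacgtAcgtAccatgcatgc
Zm-TS4, cytosines of the C-to-T table: tttatcgtaCgtaCgtaCCatgCatgC
The spacer occupies bases 54 to 76 of the 232-base amplicon. The position of the gene in the maize genome and the exon or UTR status of the site were not analysed here. The spacer holds 5 adenines and 7 cytosines. The A-to-G table lists A9 and A13, and A5, A16 and A20 have no row there. The C-to-T table lists C6, C10, C14, C15, C19 and C23, and only C2 has no row. Nothing can be said of the unlisted bases.

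The spacer repeats itself every 4 bases from position 2 to position 14, so that bases of the same kind recur in the same surroundings at different distances from the PAM. A9 and A13 both stand in the triplet tac and differ first at the second base downstream, with gtacg around A9 and gtacc around A13. C6 and C10 share all 5 bases of tacgt. C14 stands in acc, C15 in cca, and C19 and C23 both in gca.

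All conversions below are percents of reads as deposited. The tables give no number of reads behind each percent, and read totals from other sources were not used here. The lowest value above 0 is 0.20% in both tables, so a value listed at 0 is not a measured absence. At Zm-TS4, 33 of 42 A-to-G values and 38 of 54 C-to-T values were above 0.

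A9 was converted in 6 of the 7 ABE arms, to a highest single value of 16.7%. Arm 4 gave 15.2, 15.5 and 16.7% in replicates 1 to 3, a mean of 15.8% ± 0.80 (SD, n = 3). Arm 5 gave 14.4, 11.2 and 11.8% (12.5% ± 1.71), and arm 6 gave 12.0, 8.85 and 12.3% (11.1% ± 1.92). All replicates of arm 4 were above all those of arm 5, whereas arms 5 and 6 overlapped. Arm 3 gave 6.54, 10.5 and 9.32% (8.80% ± 2.05) and overlapped with arm 6. Arm 2 gave 3.15, 2.88 and 3.73% (3.25% ± 0.43). Arm 1 gave 0.51, 0.40 and 0.26% (0.39% ± 0.13), and arm 7 was listed at 0 in all 3 replicates. From arm 3 downwards no neighbours in this order overlapped.

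Arm 1 had no other value above 0. A9 of Zm-TS4 was the only adenine of the A-to-G table that arm 1 converted, in 3 of 3 replicates, while its 30 values at the other 3 targets and its 3 values at A13 of Zm-TS4 were all listed at 0. These values lie close to the lowest listed value of 0.20%.

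At A13 the order of the arms was not the same. Arm 6 gave 10.7, 8.34 and 10.5% in replicates 1 to 3, a mean of 9.84% ± 1.30 (SD, n = 3). Arm 5 gave 10.97, 7.87 and 8.82% (9.22% ± 1.59) and overlapped with arm 6. Arm 4, the arm with the highest A9 mean, gave 6.13, 5.91 and 6.11% (6.05% ± 0.12), below every replicate of arms 5 and 6. Arm 3 gave 2.49, 3.81 and 2.82% (3.04% ± 0.69), arm 2 gave 0.78, 0.95 and 0.80% (0.84% ± 0.09), and arms 1 and 7 were listed at 0 throughout. Arms 2 to 4 did not overlap with each other or with arms 5 and 6.

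Averaged over A9 and A13, the 3 highest arms could not be ordered. The mean per arm was 10.9% ± 0.42 in arm 4, 10.8% ± 1.65 in arm 5 and 10.5% ± 1.61 in arm 6 (SD, n = 3), with overlapping replicates. It was 5.92% ± 1.33 in arm 3, 2.05% ± 0.19 in arm 2 and 0.20% ± 0.06 in arm 1. Across the 7 arms the Kruskal-Wallis statistic was 18.3 (permutation p = 1e-05, the smallest that 100000 resamples can give). It was 18.96 for A9 alone and 19.4 for A13 alone, with the same p. These tests include arm 7, listed at 0, and arm 1 near the lowest listed value. They do not show which of the other arms differ from each other. Any single pair of arms has 3 replicates against 3, for which the smallest two-sided exact permutation p is 0.10.

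A9 was higher than A13 in each of the 18 ABE columns in which A9 was above 0. Over the 7 arm means the difference was 3.25 percentage points, with A9 higher in 6 arms and both at 0 in arm 7 (exact sign-flip permutation p = 0.031, two-sided, the smallest possible with 6 nonzero differences). The gap was 9.09 to 10.6 points in arm 4 but 0.51 to 1.81 points in arm 6. A13 reached 26.4% ± 5.94 of the A9 value in arm 2, 34.8% ± 4.08 in arm 3 and 38.4% ± 1.85 in arm 4 (SD, n = 3). It reached 73.8% ± 2.89 of A9 in arm 5 and 89.4% ± 4.49 in arm 6. The replicates of arms 2 to 4 lay between 21.4 and 40.3%, those of arm 5 between 70.6 and 76.2% and those of arm 6 between 85.3 and 94.2%. This ratio was chosen after the values were seen and was not tested.

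The arm order at Zm-TS4 was set beside that at Zm-TS3 and Zm-TS8, whose crRNAs were delivered to the same cells. Zm-TS3 lies in small kernel 1 and Zm-TS8 in dwarf4, which encodes an enzyme of brassinosteroid synthesis. Their listed adenines are shown in capitals for comparison of position and surroundings with A9 and A13.
Zm-TS3, adenines of the A-to-G table: tttcggaaggcgcAgAtcgAgtccgcg
Zm-TS8, adenines of the A-to-G table: tttacatagcactAgcAcctgcttttg
Averaged over the arms, the most converted adenine was A9 at Zm-TS4 and A10 at Zm-TS3. At Zm-TS8 the averages were 1.96% at A10 and 1.91% at A13, with A13 above A10 in arms 2, 4 and 5, and A10 stands for this guide below. A10 of Zm-TS3 had means of 3.61% ± 0.55 in arm 4, 12.2% ± 3.65 in arm 5 and 20.03% ± 0.59 in arm 6 (SD, n = 3), with no overlap between these arms. At A9 of Zm-TS4 the means of the same arms ran the other way, with arm 4 above arms 5 and 6 and the latter pair overlapping. At A10 of Zm-TS8 arm 4 was highest, as at A9, with 5.89% ± 0.74 against 2.85% ± 0.38 in arm 5 and 2.34% ± 0.63 in arm 6. At Zm-TS8, A13 was close to its A10 in arms 3 to 5, at 94.1% ± 16.9, 102% ± 13.2 and 105% ± 12.3 of it. In the same 3 arms A13 of Zm-TS4 was at 34.8, 38.4 and 73.8% of A9. In arm 6 no such gap was seen, with 83.7% ± 29.4 at Zm-TS8 and 89.4% ± 4.49 at Zm-TS4. At Zm-TS3 the share of the next listed adenine, A12, in A10 was 7.37% ± 0.46 in arm 4, 20.5% ± 7.97 in arm 5 and 46.7% ± 2.74 in arm 6, so the order of these arms was that of A13 over A9 at Zm-TS4. Zm-TS1, the remaining target in the same cells, also has rows at A9 and A13, at low values. Its A9 means were 0.81, 1.81 and 1.66% in arms 4, 5 and 6, so arm 4 was lowest there, unlike at A9 of Zm-TS4. Its A13 means were 0.47, 1.21 and 0.98%, with A13 and A9 both highest in arm 5.

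Mean A-to-G conversion over the listed adenines was higher at Zm-TS4 than at each other target. The listed sets are unlike, with 2 adenines at Zm-TS4 and Zm-TS8, 5 at Zm-TS1 and 3 at Zm-TS3. A15 of Zm-TS1 and A16 of Zm-TS3 averaged 0.03 and 0.21% over the arms and lower the means of their targets. The difference over the 7 arm means was 5.04 percentage points from Zm-TS1 in fasciated ear3, 3.38 points from Zm-TS3 and 3.83 points from Zm-TS8. Zm-TS4 was higher in 6 arms and equal at 0 in arm 7 each time (exact sign-flip permutation p = 0.031, two-sided, and 0.031 after Benjamini-Hochberg adjustment over the 3 targets). In arm 1 the Zm-TS4 mean was 0.20%, at the lowest listed value, and the other targets were at 0. If arm 1 were left out, p could not pass 0.05, here or between the most converted adenines below. Without replicate 1 or without replicate 3 the difference from Zm-TS3 was 3.39 or 3.18 points and did not pass (exact permutation p = 0.094). Between the most converted adenines, A9 exceeded A8 of Zm-TS1 by 5.92 points and A10 of Zm-TS8 by 5.44 points, again in 6 arms (exact permutation, adjusted p = 0.047). Against A10 of Zm-TS3 the difference was 2.19 points and did not pass (exact permutation p = 0.38, adjusted p = 0.38). There, A9 was higher by 12.2 points ± 0.75 in arm 4, by 0.25 ± 2.14 points in arm 5 with replicates on both sides of 0, and lower in arm 6, at -8.97 points ± 2.52 (SD, n = 3). The target means in arm 6 were 10.5% at Zm-TS4 and 10.2% at Zm-TS3.

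In the CBE experiment conversion was spread over most of the Zm-TS4 spacer. C10 gave 16.7, 14.2 and 18.1% in the 3 CBE5 replicates, a mean of 16.4% ± 1.97 (SD, n = 3). It gave 14.5, 12.99 and 17.4% in the CBE6 replicates (14.9% ± 2.23) and was listed at 0 in the 3 control replicates. C6 had the same CBE5 values as C10, and in CBE6 it gave 14.2, 12.99 and 17.4% (14.8% ± 2.27). In 5 of 6 editor replicates the percents of C6 and C10 were equal to 2 decimals, and in the sixth, CBE6 replicate 1, they were 14.16% and 14.46%. Equal highest values at neighbouring cytosines were not peculiar to this site, since 14 of the 17 editor columns above 0 at the other 3 targets also had at least 2 cytosines at the same highest value. A9 and A13 were equal in 0 of 18 ABE columns.

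C14 and C15 lie next to each other, PAM-distal of C10. C14 gave 13.2, 10.2 and 13.97% in CBE5 (12.5% ± 1.99, SD, n = 3) and 12.2, 10.5 and 13.4% in CBE6 (12.0% ± 1.42). C15 gave 15.7, 12.1 and 15.8% in CBE5 (14.6% ± 2.12) and 13.4, 12.99 and 16.0% in CBE6 (14.1% ± 1.64). C15 was above its neighbour C14 in 6 of 6 editor replicates, by 1.13 to 2.65 points, a pair that was not among those tested. Both were listed at 0 in the control.

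Conversion was lowest at the PAM-distal end, at C19 and C23. C19 gave 3.92, 2.53 and 4.76% in CBE5 (3.74% ± 1.13, SD, n = 3), 1.36, 2.02 and 3.28% in CBE6 (2.22% ± 0.98), and 0, 0 and 0.24% in the control. All editor replicates of C19 were above all control replicates. C23, the last base of the spacer, gave 0.46, 0 and 0% in CBE5, 0.22, 0.55 and 0.24% in CBE6 and 0.25, 0.26 and 0.32% in the control. C23 was the only Zm-TS4 cytosine with a control value above 0 in every replicate, and the groups overlapped.

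At 5 of the 6 listed cytosines, C6 to C19, every replicate of CBE5 and every replicate of CBE6 lay above every control replicate. Over all 26 cytosines of the table both editors were so separated at 57.7%, and at least 1 of them at 84.6%. The shares differ through Zm-TS10, where CBE5 was separated at 0 and CBE6 at 7 of 9 cytosines. There CBE5 replicate 1 was listed at 0 at every cytosine, which allows no separation. Replicates 2 and 3 of CBE5 reached 1.50 and 1.40%, and those of CBE6 1.42 to 1.64%. At Zm-TS3 and Zm-TS9 both editors were separated at 6 of 6 and 4 of 5, so the count at Zm-TS4 is not read as particular to it. The mean over the 6 cytosines was 10.6% ± 1.53 in CBE5, 9.75% ± 1.35 in CBE6 and 0.06% ± 0.03 in the control (SD, n = 3). Both editors together exceeded the control by 10.1 points (exact permutation p = 0.012, two-sided, 6 replicates against 3, the smallest possible). Per cytosine the adjusted p over the 6 was 0.018 at C6, C10, C14 and C15, 0.029 at C19 and 0.73 at C23 (exact permutation, Benjamini-Hochberg).

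Within each replicate the cytosines could be ordered in part. C10 exceeded C14 by 3.41 points, C19 by 12.7 points and C23 by 15.4 points, in 6 of 6 editor replicates each, and C6 exceeded C14 by 3.36 points in 6 of 6 (exact sign-flip permutation p = 0.031, adjusted p = 0.047 over 6 pairs). In these same replicates C10 had the highest mean of the listed cytosines, so the direction of its mean differences was given beforehand. The p-values do not allow for its use as the reference. C10 exceeded C15 by 1.32 points in 5 of 6 replicates and equalled it in the other (exact permutation, adjusted p = 0.075). With that tie the smallest possible unadjusted p was 0.0625 (exact permutation), the value obtained, so this pair could not pass. C10 and C6 differed by 0.05 points (exact permutation, adjusted p = 1), with a nonzero difference in 1 replicate only, so that pair could not pass either. As a share of C10, C14 stood at 75.8% ± 3.76 in CBE5 and 80.9% ± 3.90 in CBE6 (SD, n = 3). C19 stood at 22.5% ± 4.32 of C10 in CBE5 and 14.6% ± 4.81 in CBE6.

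The 2 CBEs differ in the linker, XTEN or 6xGGGGS, and no difference between them was detected at Zm-TS4. The mean over the 6 cytosines differed by -0.86 points, CBE6 minus CBE5 (exact permutation p = 0.50, two-sided). Differences between any CBE6 and any CBE5 replicate ran from -3.13 to 2.38 points. This range is the scatter of single replicates and not an interval for the difference of means. With 3 replicates each no p can go below 0.10, so a difference in either direction is not excluded. By position the lowest p was at C19, with a difference of -1.52 points and single differences from -3.40 to 0.75 (exact permutation p = 0.20). The mean position weighted by conversion was 11.4 ± 0.17 in CBE5 and 11.4 ± 0.11 in CBE6 (SD, n = 3), a difference of -0.0087 positions (exact permutation p = 1).

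Zm-TS4 was the most converted of the 4 CBE targets. Its mean over listed cytosines exceeded that of Zm-TS3 by 2.82 points, Zm-TS9 in empty pericarp 16 by 7.62 points and Zm-TS10 in compact plant 2 by 9.35 points, in 6 of 6 editor replicates each (exact sign-flip permutation p = 0.031, two-sided, adjusted p = 0.031 over 3 targets). The difference from Zm-TS3 was 1.52 points without replicate 3. Between the most converted cytosines, C10 of Zm-TS4 exceeded C9 of Zm-TS3, which equalled C7 and C14 there in 5 of 6 editor replicates, by 5.84 points, with the same count and p. The 6 listed cytosines of Zm-TS3, all that its spacer holds, are shown for comparison of their spacing.
Zm-TS3, cytosines of the C-to-T table: tttcggaaggCgCagatCgagtCCgCg
On the scale of log2(percent + 0.1) the Zm-TS3 difference in means turned to -0.11 and did not pass (exact permutation p = 0.56), while its direction at the most converted cytosine and the differences from Zm-TS9 and Zm-TS10 kept their sign.

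The 2 editing windows overlapped along the spacer. Cytosines above the control ran from C6 to C19, a span of 14 positions, and both listed adenines, A9 and A13, lie inside it. The listed adenines span 5 positions, with 1 listed cytosine, C10, between them. A9 is next to C10 and A13 is next to C14, and both pairs are 4 bases apart. The highest arm mean at A9 was 15.8%, in arm 4, where A13 had 6.05%. The highest at A13 was 9.84%, in arm 6, where A9 had 11.1%. The higher CBE mean was 16.4% at C10 and 12.5% at C14, both in CBE5. Over this step of 4 bases mean A-to-G conversion stood at 26.4 to 89.4% of A9 in arms 2 to 6, and C-to-T conversion at 75.8% of C10 in CBE5 and 80.9% in CBE6. Because A5, A16 and A20 have no rows, the outer limits of the A-to-G window cannot be set against those of the C-to-T window. The tables come from separate experiments, so these values stand side by side with no test.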

How the data were processed

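The authors amplified the targets from sorted maize protoplasts, demultiplexed the reads with Je and measured conversion with CRISPResso2 (quantification window size 10, centre -12, minimum average read quality 30). Tool versions are not given in the sources used here. The deposited values are percents of reads converted per listed base, arm and replicate, with no read number beside them, and demultiplexing totals in the study's supplement were not used, so no counting interval is given. The deposited counts of unmodified and modified reads were used only for 4 maize libraries without arm labels (Wilson 95% intervals, which cover counting error only).

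Values were taken as deposited, and means, SDs and exact or 100000-resample permutation tests were computed with Python 3.11.15, NumPy 2.4.6 and SciPy 1.17.1. Tests were checked on simulated data. Replicates were the unit, or arm means between adenines and between targets. Base positions of 1 replicate share reads. Replicates are independent biological replicates by the methods. Every listed adenine and cytosine of Zm-TS4 is named, and of other targets mainly the most converted base or the mean. The guide and the tests were chosen with earlier results of these data known. The threshold was p 0.05. Scale, treatment of values at 0, summary, pairing and left-out replicates were varied. Indels at Zm-TS4 from the nuclease experiment were not used here, because its value rows carry no target names. Sequences came from the study's guide list.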

Additional observations from a re-analysis of the deposited data

Results flagged for a closer look

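A9 of Zm-TS4 and A10 of Zm-TS3 were edited in the same cells, and their difference changed sign between arms. A9 was higher in every replicate of arms 1 to 4, by 0.39, 3.13, 8.37 and 12.2 percentage points on average. In arm 6 it was lower in every replicate, with a mean difference of -8.97 points. The change of sign between arms was not tested.

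The other flagged values come from 4 maize libraries that no comparison above uses, since their labels name no arm. In these, reads of the Zm-TS4 amplicon with at least 1 substitution made up 24.5% (Wilson 95% interval 24.4 to 24.5%) of 2008039 reads in library 1, 24.9% (24.8 to 25.0%) of 2076748 in library 2, 7.03% (6.99 to 7.06%) of 1951172 in library 3 and 7.53% (7.50 to 7.57%) of 1941788 in library 4. The share was the highest of the 6 amplicons in each library, where the other 5 lay at 5.49 to 10.98%, 5.04 to 11.6%, 3.19 to 5.38% and 3.32 to 5.80%. Reads with a deletion at Zm-TS4 made up 0.076, 0.082, 0.17 and 0.082%. Whether any of these libraries holds untreated cells is not stated in their labels, and substitutions include sequencing errors, whose part was not tested.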

How the results depend on the processing

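The replicate numbers are not stated to pair the arms, and same-numbered replicates did not all deviate together (correlations of -0.76 to 0.86 between CBE5 and CBE6, and of -0.90 to 0.77 between ABE arms, over all listed bases). With the replicate block H was 18.3 for the ABE arms, and the call did not change. The CBEs exceeded the control by 10.1 points (exact permutation p = 0.037), again with the same call. CBE6 minus CBE5 was -0.86 points (exact permutation p = 0.25). That is the smallest p that 3 pairs can give, so this call could not change. CBE6 had the lower mean in each of the 3 same-numbered pairs.

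Of the planned settings other than leaving out a replicate, 39 left direction and call as reported. A-to-G at Zm-TS4 against Zm-TS3 no longer passed between the most converted adenines (2.19 points). On the log2(percent + 0.1) scale CBE6 minus CBE5 was 0.016 and Zm-TS4 minus Zm-TS3 in the CBE table -0.11. The centre of the C-to-T profile differed by 0.087 positions over C6, C10 and C14 alone, and by -0.16 to 0.11 positions with a replicate left out (an alternative added after seeing the data). These signs belong to differences within the replicate spread, except that from Zm-TS3; the cause was not tested.

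Leaving out a replicate number leaves too few arrangements for p to go below 0.067 in the CBE test against the control. Between cytosines and between targets of the CBE table p could not go below 0.125, so no call was possible in these tests. The values ran from 9.46 to 10.8 points for the CBEs over the control, 3.06 to 3.67 for C10 minus C14, 12.2 to 13.3 for C10 minus C19, 14.3 to 16.4 for C10 minus C23, 2.99 to 3.67 for C6 minus C14, 7.00 to 8.23 against Zm-TS9 and 8.72 to 10.2 against Zm-TS10. Against Zm-TS3 they ran from 1.52, without replicate 3, to 3.88. CBE6 minus CBE5 ran from -1.18 to -0.37 points, and that test, with fewer arrangements still, could not pass either. In the ABE table the difference from Zm-TS3 ran from 3.18 to 3.57 and did not pass without replicate 1 or without replicate 3 (exact permutation p = 0.094). With no read number beside the percents, the counting error of values near 0.20% could not be estimated, which bears on arm 1 and on C23.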
